A study of Homo sapiens with 16 samples.

Results

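The cytosolic ribosomal protein genes were followed in JSL1, a clone of the Jurkat human T cell leukemia line, and in its HDAC7-edited derivatives. Members were the protein-coding GENCODE 29 genes whose symbol begins with RPL or RPS followed by a digit, P or A, without the S6 kinase genes. The rule gave 91 of 58295 genes. Of these, 77 encode ribosomal proteins proper, 46 of the large subunit (3 of them stalk proteins) and 31 of the small subunit. Kept apart were 10 paralogues, most with an L suffix, 3 readthrough genes that join a ribosomal protein gene to its neighbour, and RPS19BP1, a gene named for binding RPS19. Of the 91, 88 had enough counts to be tested, and RPL10L, RPS4Y2 and RPL36A-HNRNPH2 did not.

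All libraries came from JSL1 cells, 2 of unedited wild type (WT), 3 of the line labelled HDAC7 E9-/- (an exon 9 knock-out, called dE9) and 3 of the line labelled HDAC7 E9+ (an exon 9 knock-in, called iE9), each in growth medium and after PMA. HDAC7 is a class IIa histone deacetylase, and PMA, a phorbol ester, stands in for T cell receptor signals by activating protein kinase C. PMA was given at 20 ng/mL for 48 h. The labels give 48 h for the cells in growth medium too, whereas the description of the series sets 0 h against 48 h after PMA; if the latter holds, PMA and time in culture cannot be told apart. The labels do not say how many clones stand for each edited line, nor whether replicates were separate cultures, so p-values measure only the spread between these libraries. The share of HDAC7 transcripts holding exon 9 was 43.1 to 53.8% in the 4 WT libraries, 0 to 7.37% in the 6 dE9 libraries and 42.3 to 74.8% in the 6 libraries labelled iE9, so the iE9 range of this share overlapped that of WT. The level of HDAC7 as a whole did not overlap. In counts scaled to a common library size (CPM), it was 45.7 and 58.1 in unstimulated WT and 204, 129 and 172 in unstimulated iE9. With PMA it was 244 and 238 CPM in WT and 405, 325 and 322 CPM in iE9.

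Each ribosome holds 1 small subunit, which reads the mRNA, and 1 large subunit, which joins the amino acids, and nearly every ribosomal protein is needed in the same number. Their mRNAs are among the most abundant in growing cells, and most begin with a short run of pyrimidines after a C (the terminal oligopyrimidine, or TOP, motif), through which the kinase mTORC1 and the RNA-binding protein LARP1 control their translation and stability. In T cells and T cell leukemia, the demand for ribosomes follows growth and the transcription factor MYC.

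The RefSeq start sites showed this motif. Of the 77 genes, 62 had an entry in the RefSeq promoter table (GRCh38.p14), and 42 of these 62 (67.7%) began with C followed by C or T to the fifth base, against 4.04% of all 27305 promoters in the table. Among those without an entry were RPL5, RPL7, RPL8, RPL23, RPL23A, RPL30, RPL37, RPS2, RPS15A and RPS20. The windows below run from 10 bases before to 20 after the start, and capitals mark the first 5 transcribed bases. RPL35, RPL14, RPSA and RPL41 stand for genes that were lower after PMA in every line, and RPL28, RPS27 and RPS4X for genes that did not pass the unblocked test (without the replicate number as a term) in any line.
RPL35 (chr9:124861938-124861967, minus strand): cgcctacttcCTCTTtccctcggagcgggc
RPL14 (chr3:40457329-40457358, plus strand): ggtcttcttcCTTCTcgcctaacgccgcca
RPSA (chr3:39406710-39406739, plus strand): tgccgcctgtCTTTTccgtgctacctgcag
RPL41 (chr12:56116623-56116652, plus strand): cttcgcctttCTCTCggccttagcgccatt
RPL28 (chr19:55385922-55385951, plus strand): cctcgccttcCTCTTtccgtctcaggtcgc
RPS27 (chr1:153990752-153990781, plus strand): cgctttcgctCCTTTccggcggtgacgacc
RPS4X (chrX:72277229-72277258, minus strand): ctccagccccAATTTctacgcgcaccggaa
RPL35 and RPL28 hold the same first 5 bases, although one stood at the low end and the other at the high end of the response to PMA. The start listed for RPS4X does not hold the motif at that position. With and without the motif at the listed first base, the median change with PMA was -0.51 (42 genes) and -0.51 (20 genes) in WT, -0.25 and -0.29 in dE9, and -0.84 and -0.78 in iE9 on the log2 scale. Within 10 bases of the start on either side, 55 of the 62 (88.7%) held C followed by 4 pyrimidines, against 33.3% of all promoters, so most of the 20 hold it nearby. By that wider criterion the medians with (55 genes) and without it (7 genes) were -0.53 and -0.41 in WT, -0.26 and -0.23 in dE9, and -0.83 and -0.73 in iE9. Searched on both strands of the 300 bases around the start, CCGGAA, the core of ETS-family sites, was present in 53.2% of the 62 and 17.6% of all promoters, and AAGATGGC, the core bound by YY1, in 9.68% and 3.03%. CACGTG, the E-box bound by MYC and MAX, was present in 3 of the 62 (4.84%) and 7.43% of all, and TATAAA in 8.06% and 12.0%.

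The 77 genes took between 2.60% and 8.17% of all gene counts in a library. The share was 8.17 and 7.65% in the unstimulated WT libraries and 6.36 and 5.48% in those with PMA. In dE9 it was 7.62, 6.73 and 7.001% without and 5.67, 6.51 and 6.08% with PMA. In iE9 it was 4.25, 7.49 and 7.01% without and 2.60, 4.21 and 4.51% with PMA. The groups with and without PMA did not overlap in WT and dE9, whereas the unstimulated iE9 library numbered 1 lay below 1 iE9 library with PMA. The ratio of large to small subunit counts stayed between 1.38 and 1.46 in the 16 libraries, whatever the family's share.

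**Figure D1:**
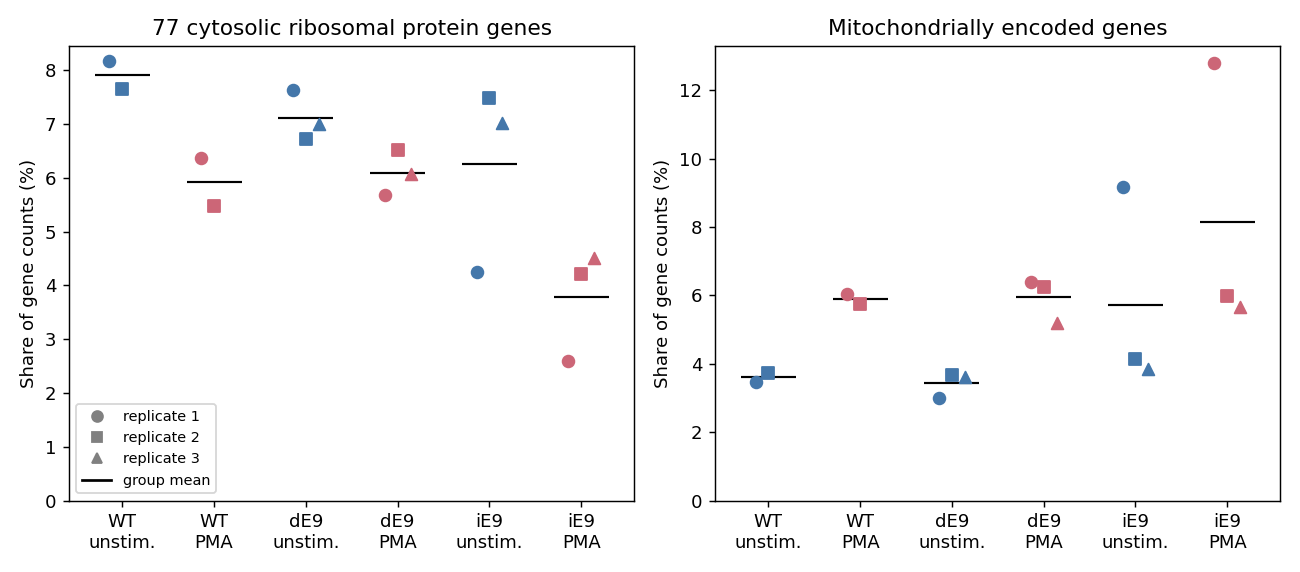
Share of gene counts (%, vertical axes) taken by the 77 ribosomal protein genes (left) and by mitochondrially encoded genes (right) in each library of the 6 groups; marker shapes give the replicate number and bars the group means. The PMA libraries of iE9 hold the lowest ribosomal protein shares (2.60 to 4.51%), and both iE9 libraries numbered 1 the highest mitochondrial shares (9.17 and 12.8%).

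Total counts ran from 14536537 to 21888896 per library, and no replicates agreed within sampling noise. Mitochondrially encoded genes took 3.00 to 4.14% of counts in the other 7 unstimulated libraries and 5.20 to 6.39% in the other 7 PMA libraries, but 9.17 and 12.8% in the iE9 libraries numbered 1. All 10 T cell markers were detected (summed level 1572 to 4435 CPM, counts scaled to a common library size), but not evenly. CD2 ran from 0.0616 to 26.9 CPM and CD5 from 1.97 to 410 CPM. Myeloid markers summed to at most 1.07 CPM, and 3 of 4 epithelial, erythroid and B cell markers were under 1 CPM in all libraries. Fibroblast and endothelial markers summed to 16.5 to 99.9 CPM, with 2 of 5 under 1 CPM throughout. The remaining B cell marker, CD79A, set that list's sum, which ran from 6.95 to 154 CPM in WT and dE9 and reached 206 to 402 CPM in iE9 with PMA; its part in the results was not tested, and neither was that of the mitochondrial share. Bulk levels are relative to the library, so less of an mRNA per cell and fewer cells that hold it cannot be told apart.

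Within the family, mean levels per length ran from 267 to 4919 TPM (transcripts per length, scaled to the same total in every library). RPS27, a zinc-binding small subunit protein, was highest at 4919 ± 988 TPM (SD, n = 16 libraries), followed by RPL41, the smallest ribosomal protein, at 4584 ± 1481. RPL37A and RPS23 were also among the 5 highest, at 3344 ± 647 and 3330 ± 1200 TPM. RPS27 and RPL41 overlapped widely, and their order changed with treatment, since the mean of the 8 unstimulated libraries was 4808 TPM for RPS27 and 5820 TPM for RPL41. At the low end were RPL12 (965 ± 249 TPM), RPL22 (862 ± 218), RPL23A (572 ± 133), RPL9 (459 ± 115) and RPS28 (267 ± 59.6).

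**Figure D2:**
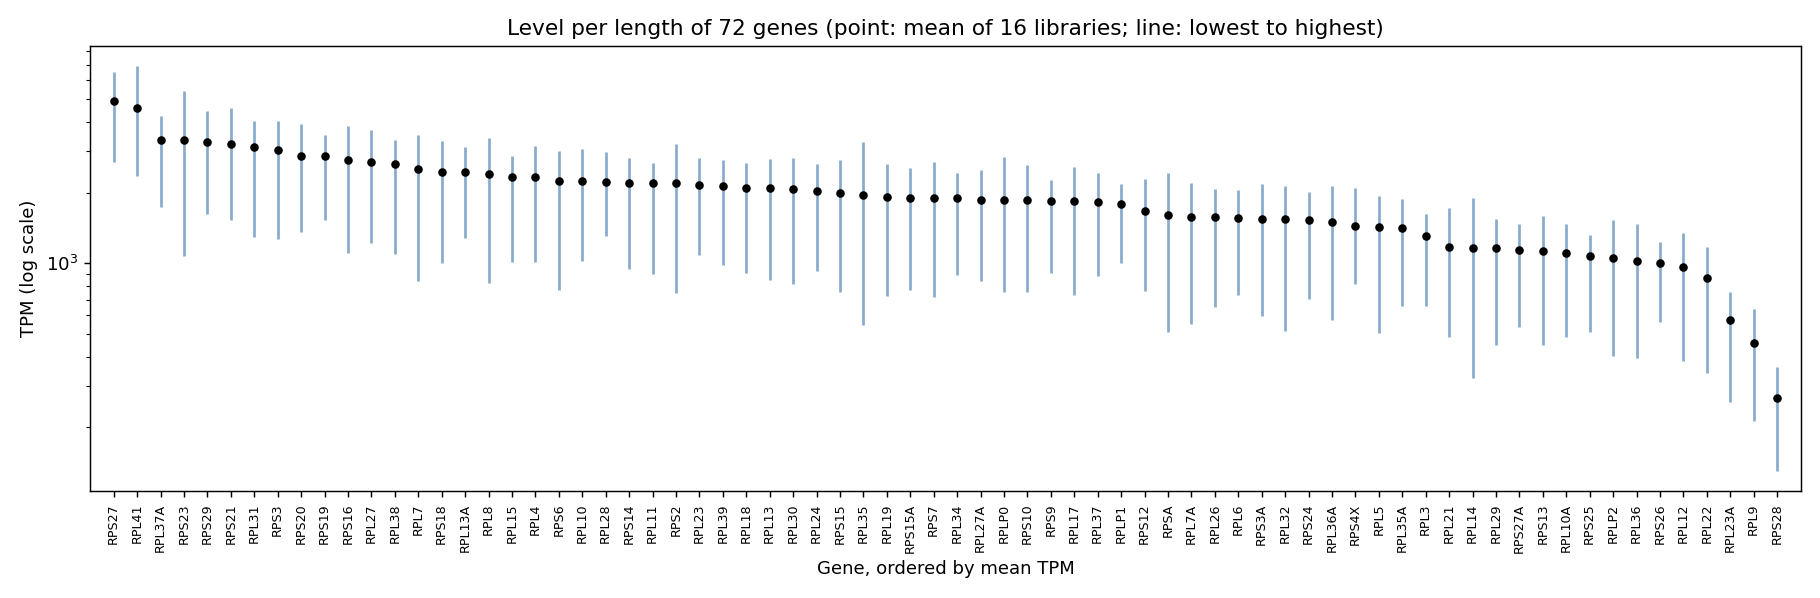
Level per length (TPM, log axis) of 72 of the 77 genes, ordered by mean; points are means of the 16 libraries and lines run from the lowest to the highest library. Most genes lie between 862 and 4919 TPM, with RPL23A, RPL9 and RPS28 below.

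For 3 of those 5 the order is uncertain, since processed pseudogenes named for these genes took many of the reads. Of the reads given to the gene or to pseudogenes named for it, pseudogenes held 69.3% for RPL9, 60.1% for RPL23A and 32.1% for RPS28, and 25.2% for RPS2. Adding those reads to the parent gene, an alternative chosen after the data were seen, changed the number of members called in none of the 12 comparisons by more than 1.5 times.

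Part of the family fell with PMA in every line, and 0 of 88 members rose in the unblocked test (background 11.1% higher in WT, 17.1% in dE9 and 12.6% in iE9). Of 88 members tested, 12 fell in WT (13.6%, against 11.3% of the 18073 genes tested), 11 in dE9 (12.5%, against 16.5%) and 61 in iE9 (69.3%, against 14.4%). In WT and dE9 the share of members called was thus close to that of all genes, and in iE9 it was above it. Among the 77, the median log2 change was -0.53 in WT, -0.28 in dE9 and -0.82 in iE9, beside 0.03, 0.06 and -0.01 over all genes. Values below 0 were found for 74, 65 and 77 of the 77.

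**Figure D3:**
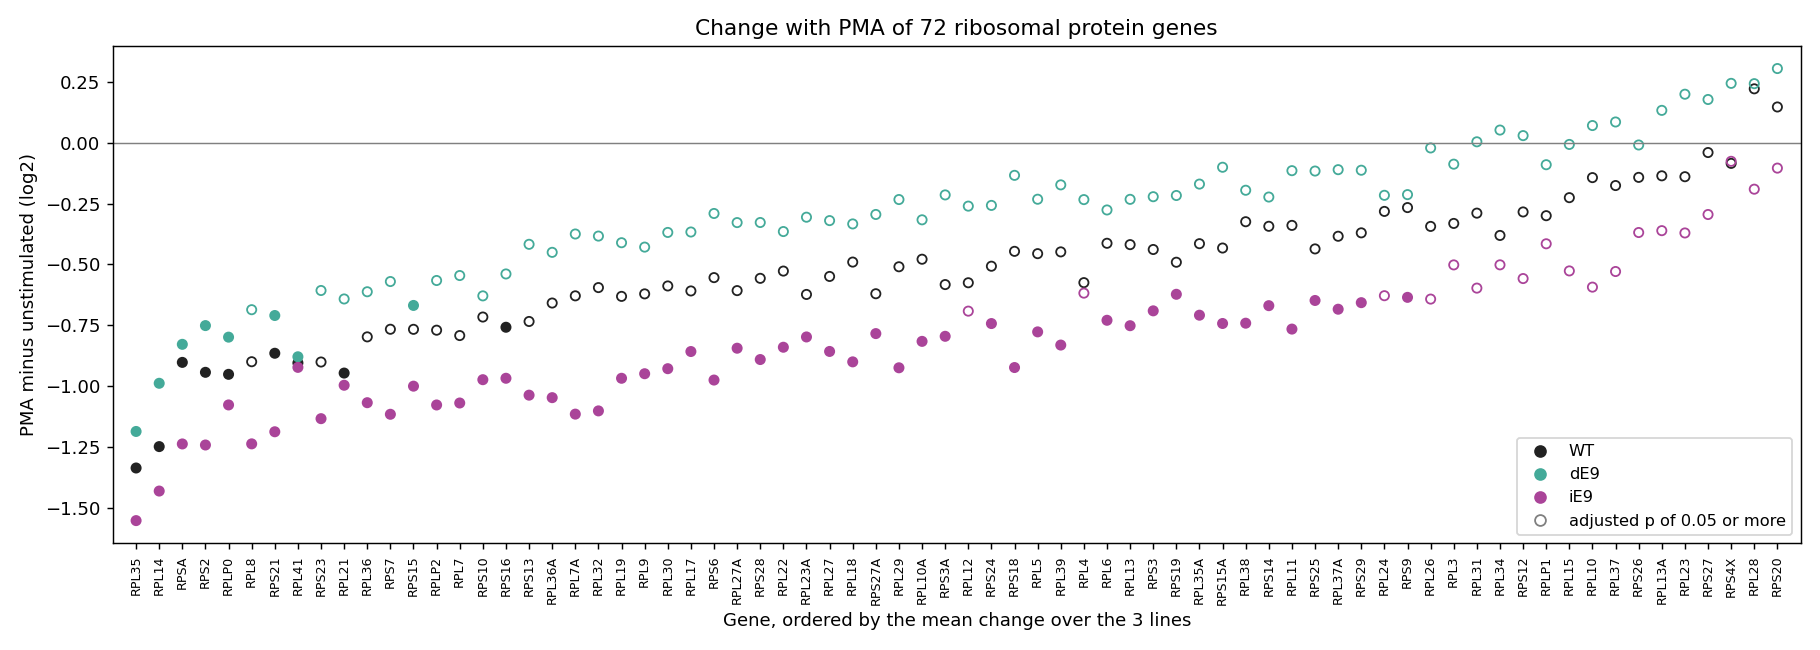
Change with PMA (log2, vertical axis) of 72 of the 77 genes in WT, dE9 and iE9, ordered by the mean over the 3 lines; filled points have an adjusted p under 0.05. RPL35 and RPL14 are lowest in all 3 lines, and RPS20, RPL28 and RPS4X are open points near 0.

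Like-numbered libraries of dE9 and of iE9 deviated together, so the number was also used as a block within each line. Calls on single genes below are unblocked unless the block is named. With that block, 38 members fell and 4 rose in dE9 (background 22.7% lower and 22.5% higher), and 78 fell in iE9 (background 21.1%). Among the 4 that rose were RPL28 (0.24, SE 0.08, adjusted p = 0.0298), RPS20 (0.30, SE 0.10, adjusted p = 0.0418) and RPS4Y1 (0.34, SE 0.12, adjusted p = 0.0421). The mean log2 level of the 77 was lower with PMA in each pair, by 0.53, 0.08 and 0.31 in dE9 and by 0.75, 0.95 and 0.70 in iE9. Lower in each pair were 43 of the 77 in dE9 (background 30.9%) and 75 in iE9 (35.1%). The pair numbered 2 of dE9 thus moved least, with 43 of 77 genes lower, against 75 and 62 in the other pairs. In WT the libraries with PMA lay below those without for 68 of the 77 (background 36%). Leaving out any 1 of the 4 WT libraries left 1 library in an arm, with its spread taken from the other groups, and 0 or 1 members passed. In dE9 6 passed without the unstimulated library numbered 1 and 7 without the PMA library numbered 3 (13.2 and 13.5% of all genes lower). In iE9 29 passed without the unstimulated library numbered 2 (9.73% of all genes lower) and 37 without the unstimulated library numbered 3 (10.3%). Without the PMA library numbered 1, 39 passed (11.5%), and 69 passed without both libraries numbered 1 (14.2%).

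The members that fell in all 3 lines numbered 9, and RPL35 and RPL14 changed most. The share of all genes that fell in all 3 lines is not given here, so the 9 are a description only. RPL35, a large subunit protein beside the exit tunnel (ENSG00000136942), stood at 1050.4 and 939 CPM in unstimulated WT and 434 and 353 CPM with PMA. In dE9 its levels were 1023, 874 and 870.1 CPM without and 519, 409.7 and 287 CPM with PMA. In iE9 they were 424, 912 and 816 CPM without and 166, 272 and 295 CPM with PMA. No PMA library reached an unstimulated library of its own line. The log2 change was -1.34 (SE 0.36, adjusted p = 0.0152) in WT, -1.19 (SE 0.29, adjusted p = 0.00563) in dE9 and -1.55 (SE 0.29, adjusted p = 0.00144) in iE9. RPL14, another large subunit protein (ENSG00000188846), went from 1240.0 and 1166 to 551 and 461 CPM in WT, from 1121, 991 and 1058 to 552, 564 and 481 CPM in dE9, and from 543, 1029.5 and 861 to 193, 352 and 357 CPM in iE9, again without overlap within a line. Its log2 change was -1.25 (SE 0.30, adjusted p = 0.00929), -0.99 (SE 0.25, adjusted p = 0.00638) and -1.43 (SE 0.25, adjusted p = 0.000826) in the same order.

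On the small subunit, RPS2, RPSA and RPS21 were among the genes that fell in all 3 lines. RPSA, also known as the laminin receptor precursor, stood at 1661 and 1537 CPM without and 930.5 and 779.7 CPM with PMA in WT. Its levels were 1475, 1339 and 1477 and then 812, 874 and 730.3 CPM in dE9, and 744, 1436 and 1329 and then 325, 571 and 590.7 CPM in iE9. Groups did not overlap in any line, and its log2 change was -0.90, -0.83 and -1.24 (adjusted p = 0.0466, 0.0189 and 0.00242). RPS2, near the mRNA entry, changed by -0.94, -0.75 and -1.24. RPS21 had the smallest adjusted p of the family in iE9, with -1.19 (SE 0.18, adjusted p = 0.000349) after -0.87 in WT and -0.71 in dE9. RPS15 fell in dE9 (-0.67) and iE9 (-1.001), and RPS16 in WT (-0.76) and iE9 (-0.97). With the block RPS16 also fell in dE9 (-0.54, adjusted p = 0.000987).

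The stalk is the flexible arm of the large subunit that recruits elongation factors. Its base, RPLP0, fell in all 3 lines (-0.95, -0.80 and -1.08). It stood at 2362 and 2170.2 CPM without and 1219.5 and 1123 CPM with PMA in WT, 1976, 1606 and 2053 and then 1049.9, 1011 and 1178 CPM in dE9, and 1145, 2163 and 1956 and then 566, 956 and 971 CPM in iE9. Of the pair that RPLP0 anchors, RPLP2 fell in iE9 with a log2 change of -1.08 (SE 0.23, adjusted p = 0.00347), after values of -0.77 in WT and -0.57 in dE9, whereas RPLP1 passed in no line (-0.30, -0.09 and -0.42). With the block RPLP2 also fell in dE9 (-0.57, adjusted p = 0.00144) and RPLP1 fell in iE9 (-0.40, adjusted p = 0.00591). RPL41 fell by like amounts in each line (-0.91, -0.88 and -0.92), and RPL21 fell in WT (-0.95) and iE9 (-0.997), and with the block in dE9 (-0.66, adjusted p = 0.00282).

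RPL5 and RPL11, which with 5S rRNA form the particle that can bind and block MDM2, passed the test in iE9 (-0.78 and -0.77) and not in WT (-0.46 and -0.34) or dE9 (-0.23 and -0.11). RPL23, another MDM2 binder, passed in no line (-0.14, 0.20 and -0.37). At the exit tunnel, RPL17 and RPL39 fell in iE9 (-0.86 and -0.83) while RPL4 gave -0.62 (adjusted p = 0.103). Of 4 genes recurrently mutated in T cell leukemia, RPL5, RPL11 and RPL22 (-0.84) fell in iE9 and RPL10, at the peptidyl transferase centre, did not pass there, with -0.59 (SE 0.25, adjusted p = 0.0892). With the block RPL23 (adjusted p = 0.0302), RPL4 (adjusted p = 0.00461) and RPL10 (adjusted p = 0.00156) fell in iE9 too. RPL22 (-0.36, adjusted p = 0.0158) and RPL17 (-0.38, adjusted p = 0.0394) fell in dE9 with the block. Among 19 genes mutated in Diamond-Blackfan anemia, an inherited failure of red cell production, 1, 1 and 14 fell in WT, dE9 and iE9, with median log2 changes of -0.46, -0.22 and -0.74. Of all genes 11.3, 16.5 and 14.4% fell, so the count lay below the background in WT and dE9 and above it in iE9. RPL35 was the 1 in WT and in dE9.

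At the other end, RPS20, RPL28, RPS27 and RPS4X passed in no line in the unblocked test; they were picked out after their values were seen. RPS20, in the head of the small subunit, stood at 1158 and 1122 CPM without and 1407 and 1118 CPM with PMA in WT, 1055, 1058 and 1113 and then 1175, 1519 and 1294 CPM in dE9, and 518, 1112 and 1088 and then 553, 967 and 1008 CPM in iE9. Its PMA libraries lay above the others in dE9, and overlapped them in WT and iE9 (0.15, 0.31 and -0.10). RPL28, a large subunit protein, stood at 1100.4 and 988 CPM without and 1330.1 and 1106 CPM with PMA in WT, above in both PMA libraries. In dE9 its levels were 984, 1094 and 1012 and then 1232, 1275 and 1150.5 CPM, also above, and in iE9 659, 1115 and 1009 and then 608, 927 and 904 CPM, which overlapped. Log2 changes of RPL28 were 0.22, 0.24 and -0.19 in WT, dE9 and iE9. RPS4X, encoded on the X chromosome, gave -0.08, 0.24 and -0.08, and RPS27 -0.04, 0.18 and -0.29.

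The order of the response within the family recurred in the 3 lines, which share no library. Across the 77 genes, the log2 change in WT correlated with that in dE9 (Pearson r = 0.96, Spearman rho = 0.96) and in iE9 (0.94 and 0.93), and dE9 with iE9 (0.93 and 0.93). Genes are not independent replicates, so these are descriptions. The change bore little relation to transcript length (r = -0.08, -0.07 and -0.04) or to mean log2 TPM (0.18, 0.13 and 0.17). To separate the order from the common shift, each gene's log2 CPM was set against the mean of the 77 in the same library. On that scale, 46 of 77 genes moved by 0.25 or less between the 8 unstimulated and the 8 PMA libraries, and 64 had the same sign in all 3 lines.

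By the same measure, 10 genes lay lower in all 8 PMA libraries than in any unstimulated library (background 2.11%), and 9 lay higher (background 9.72%, near the members' share). Because the family mean itself is lower with PMA, the background on this scale leans towards higher. RPL35 lay at -0.25 to 0.17 without and -1.25 to -0.28 with PMA. RPL14 went from 0.04 to 0.34 without to -0.63 to -0.19 with PMA. Also on the lower side were RPSA, RPS2, RPS23, RPL21, RPS7, RPS10 and RPS16. RPS20 lay at 0.04 to 0.40 without and 0.86 to 1.03 with PMA, and RPL28 at 0.10 to 0.45 and 0.75 to 1.02. Also on the higher side were RPS4X, RPL23, RPL15, RPL31, RPL3 and RPS25. The genes named here were chosen after their values were seen.

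**Figure D4:**
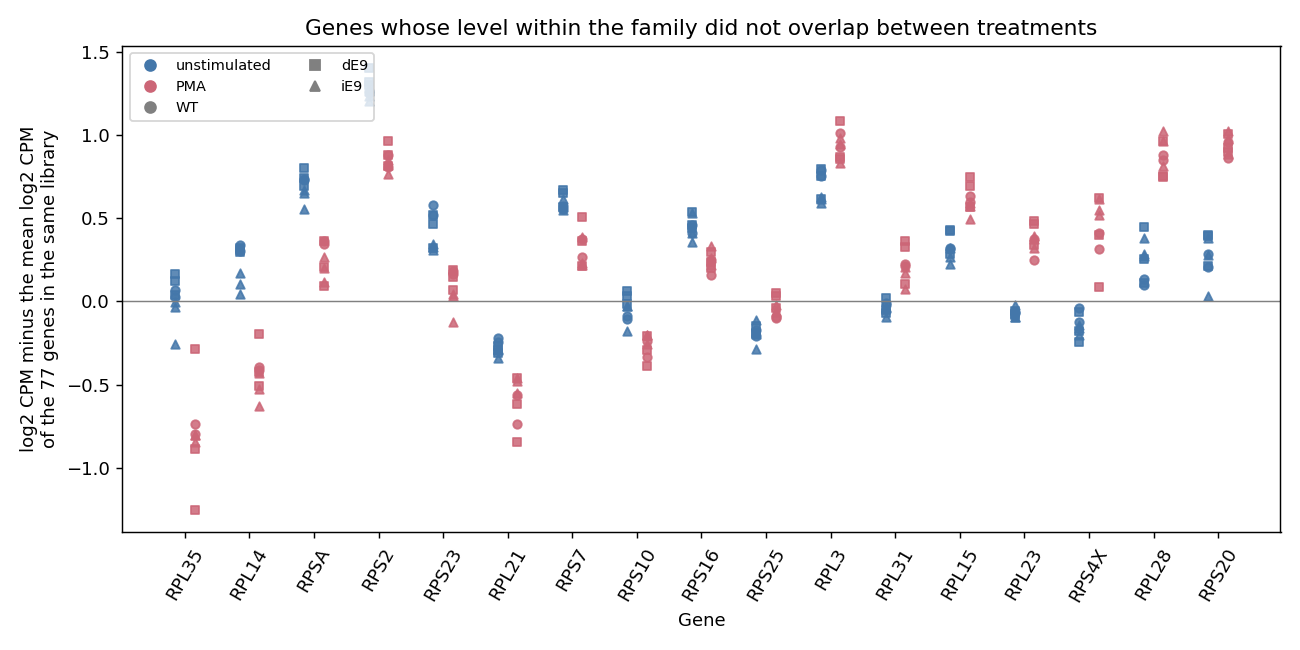
Level within the family of 17 of these 19 genes (log2 CPM minus the mean log2 CPM of the 77 genes in the same library, vertical axis) in each of the 16 libraries, coloured by treatment, with marker shapes for the line. RPL35 drops furthest and spreads most with PMA (-1.25 to -0.28), and RPS20 and RPL28 lie furthest up with PMA relative to without.

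Levels of the 77 genes moved together across libraries, with a median Pearson r of 0.93 over 2926 gene pairs and 0.93 for deviations from the group means; libraries share depth and scaling. RPS20, RPL28 and RPS4X followed the mean of the others least (r = 0.66, 0.67 and 0.70 over 16 libraries).

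Of the paralogues, RPL26L1 fell in all 3 lines: it stood at 72.8 and 63.7 CPM without and 41.6 and 38.3 CPM with PMA in WT, 74.1, 68.9 and 68.9 and then 47.2, 37.3 and 43.1 CPM in dE9, and 51.0, 76.7 and 61.6 and then 22.2, 32.6 and 33.1 CPM in iE9, without overlap. Its log2 change was -0.77 (SE 0.22, adjusted p = 0.0227), -0.73 (SE 0.18, adjusted p = 0.00635) and -1.11 (SE 0.18, adjusted p = 0.000608), and RPL26 gave -0.34, -0.02 and -0.64 and passed in no line. With the block RPL26 fell in iE9 too (-0.65, SE 0.14, adjusted p = 0.00533). Differences between paralogues and their partners were not tested. RPL39L, known for its high level in testis, fell in WT (-1.20) and dE9 (-1.32) but gave -0.71 (SE 0.32, adjusted p = 0.114) in iE9, where it stood at 19.3, 52.6 and 53.6 CPM without and 17.4, 31.5 and 27.9 CPM with PMA and the unstimulated library numbered 1 lay among those with PMA. With the block RPL39L fell in iE9 too (-0.62, adjusted p = 0.0187). RPL39 fell in iE9 (-0.83) and did not pass in WT or dE9 (-0.45 and -0.17).

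**Figure D5:**
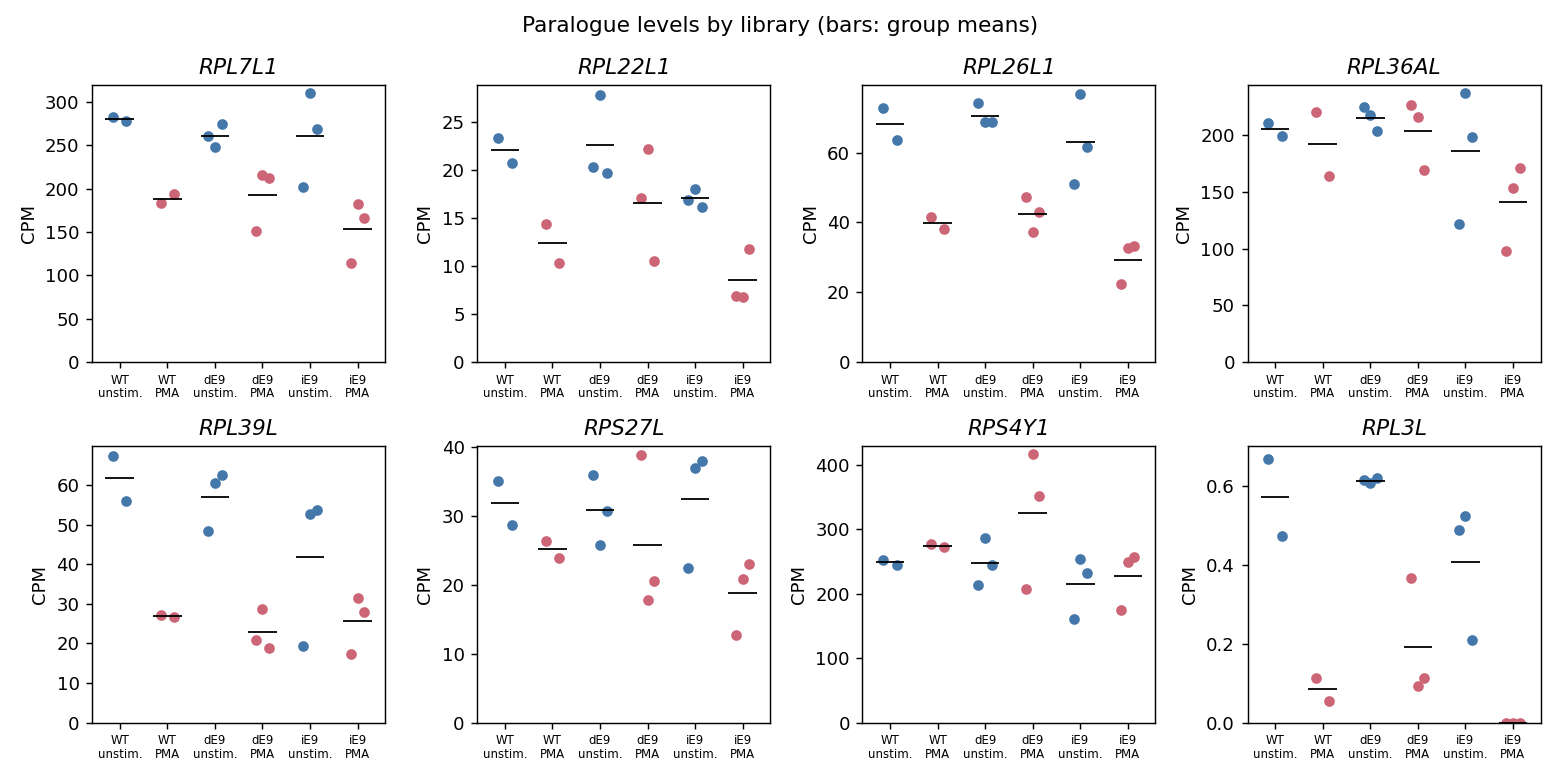
Level (CPM, vertical axes from 0) of 8 paralogues in each library by group, blue without and red with PMA; bars are group means. RPL26L1 is lower with PMA in each line, RPS4Y1 and RPL36AL overlap in most lines, and RPL3L is at 0 in the iE9 PMA libraries.

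RPL22L1 (-1.005) and RPL22 (-0.84) both fell in iE9 and passed neither in WT nor in dE9 without the block. The difference between lines, also tested without the block, passed for neither. RPL7L1, a relative of RPL7, fell in iE9 (-0.76) as RPL7 did (-1.07). RPL36AL passed in no line (-0.10, -0.08 and -0.40), while RPL36A fell in iE9 (-1.05). RPS27L and RPS27 passed in none (-0.78 and -0.29 in iE9). With the block RPL36AL (adjusted p = 0.0246) and RPS27L (adjusted p = 0.00243) fell in iE9, and RPS27 passed in neither dE9 nor iE9. In dE9 RPL7L1 (-0.45, adjusted p = 0.00918), RPL7 (-0.58, adjusted p = 0.00693) and RPL36A (-0.44, adjusted p = 0.00716) fell with the block. RPS4Y1, the Y-encoded counterpart of RPS4X, gave 0.14, 0.39 and 0.07 in the unblocked test. RPL3L, a form of RPL3 known from heart and skeletal muscle, was near the limit of counting: 18, 34 and 22 counts in all over the unstimulated WT, dE9 and iE9 libraries, and 3, 12 and 0 with PMA, where a count of 0 allows up to 3. It passed the test in iE9 (adjusted p = 0.00355). The readthroughs RPS10-NUDT3 and RPL17-C18orf32 and the binding protein RPS19BP1 passed in no line.

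Between lines, the family was lowest in iE9 with PMA. Against dE9 with PMA, the median log2 difference of the 77 was -0.71 (all genes -0.02) and all 77 values were below 0. The iE9 libraries lay below the dE9 libraries for 68 of them (background 11.1%). Only RPL7A passed after adjustment (1 of 88 members, background 1.51% lower). Of the 77, 71 had an unadjusted p under 0.05, but no share of all genes at that level is given here. Because the 77 moved together across libraries, these are not 71 separate results. RPL7A, a large subunit protein (ENSG00000148303, chromosome 9), stood at 889.6, 985 and 938 CPM in dE9 and 331, 540.3 and 576 CPM in iE9 with PMA, and differed by -0.96 (SE 0.23, adjusted p = 0.0383). Without the iE9 PMA library numbered 1 its adjusted p was 0.114. RPS6, the S6 kinase substrate, and RPS18 came next, with -1.004 (SE 0.26, adjusted p = 0.0507) and -0.90 (SE 0.23, adjusted p = 0.0508). The count of members moved with the processing: 41 with DESeq2 (3.9% of all genes lower), 40 without the filter on low counts (2.8%), 21 without both iE9 libraries numbered 1 (1.06%; median of the 77 -0.51), and 0 when only these groups were fitted (0.158%).

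Against WT with PMA, 0 members passed by edgeR in iE9 (background 1.12%), while the 3 iE9 libraries lay below both WT libraries for all 77 genes (background 21.3%). The median difference was -0.65, and DESeq2 called 2 members (2.14% of all genes lower) and limma 0. An unadjusted p under 0.05 was found for 59 of the 77, again without a share of all genes to set beside it. Without both iE9 libraries numbered 1 the median was -0.43, with 1 member called. Without PMA, iE9 had medians of -0.36 against WT and -0.20 against dE9, with 0 members called by edgeR, DESeq2 or limma (background 1.38 and 1.72%), 1 and 0 of the 77 at an unadjusted p under 0.05, and medians of -0.14 and 0.03 without the iE9 libraries numbered 1. dE9 and WT differed for 0 members in either treatment by edgeR, DESeq2 or limma, and with edgeR 0 of all 18073 genes passed in either. The medians were -0.17 without and 0.06 with PMA, with 0 of 77 at an unadjusted p under 0.05. Without PMA, the dE9 libraries lay below both WT libraries for 45 of the 77, and the iE9 libraries did so for 45 too. The unstimulated iE9 libraries lay below those of dE9 for 0. With PMA, dE9 lay below WT for 1 of the 77 and above it for 1. No share of all genes is given here for these counts.

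The difference between lines in the response to PMA was tested directly, without the replicate block. No member passed by edgeR, DESeq2 or limma in any of the 3 interaction comparisons, in which 0 of 18073 genes passed with edgeR. The median of the 77 was -0.52 for iE9 minus dE9, with 77 of 77 below 0 and 3 at an unadjusted p under 0.05. For iE9 minus WT it was -0.30, with 0 at that level, and for dE9 minus WT 0.23, also with 0. By these unblocked tests, the larger number of members called in iE9 is therefore not shown to be a larger response than in WT or dE9. The same differences with the replicate block nested in line are not given here.

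Some members gave many of their reads to transcripts without an annotated full coding frame. Of 791 transcripts of the 77 genes, 358 are of such types. The median share of reads was 2.87%, but it was 85.6% for RPL14 (80.3 to 88.4% over the 16 libraries), 75.1% for RPL4 (72.9 to 79.7%), 57.3% for RPL37 (53.5 to 61.2%) and 43.3% for RPL22L1 (24.8 to 70.0%). With PMA, 0 of 82 members tested changed this share in WT, dE9 or iE9 by edgeR's test for differential transcript use (background 0.193, 0.307 and 0.0797%), and 5, 9 and 6 (6.10, 10.98 and 7.32%) had an unadjusted p under 0.05, beside 10.1, 12.3 and 9.32% of the 8787 genes tested. The smallest adjusted p was 0.215, 0.129 and 0.369.

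Genes of ribosome supply outside the symbol rule mostly lay lower with PMA too. For comparison, 11.3, 16.5 and 14.4% of all genes tested fell in WT, dE9 and iE9, and 11.1, 17.1 and 12.6% rose. Of the 78 mitochondrial ribosomal proteins, which translate the mitochondrial genome, 32 fell in WT, 48 in dE9 and 55 in iE9 and 0 rose, with medians of -0.64, -0.66 and -0.86. MRPL36 changed by -1.47, -1.42 and -1.73. Small subunit assembly factors fell in 5, 8 and 6 of 8 cases, among them TSR1 (-1.45, -1.62 and -1.66) and BYSL (-1.24, -1.40 and -1.86). Of 14 large subunit assembly factors 5, 6 and 8 fell, among them MRTO4 (-1.98, -2.05 and -2.19), which holds the place of RPLP0 during assembly, and BOP1 (-1.59, -1.73 and -1.56), while ZNF622, a late assembly factor, rose in WT and dE9 (0.49 and 0.41). Of 8 chaperones and quality control factors 3, 5 and 5 fell, among them GRWD1, the chaperone of RPL3 (-1.27, -1.53 and -1.42), and BCCIP, that of RPL23 (-1.08, -1.09 and -1.26). RPF2, which loads the 5S particle, fell in each line (-1.39, -1.61 and -1.82).

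Other proteins of the ribosome and of TOP mRNAs were split. The shares of all genes were again 11.3, 16.5 and 14.4% lower and 11.1, 17.1 and 12.6% higher in WT, dE9 and iE9. FAU and RACK1, ribosomal proteins under other symbols, fell in iE9 (-0.98 and -0.71) and passed neither in WT nor in dE9. Of 17 translation factors and other TOP mRNAs, 4, 5 and 6 fell and 0, 1 and 1 rose (medians -0.38, -0.13 and -0.45). NPM1, a nucleolar chaperone, changed by -1.43, -1.33 and -1.51 and EEF1D by -0.76, -0.72 and -0.92, whereas TPT1 rose in dE9 and iE9 (1.11 and 0.80; WT 0.86, adjusted p = 0.081). Of 11 genes of the MYC network and promoter factors, 2, 2 and 1 fell and 2, 3 and 2 rose, near the shares of all genes for so short a list. MYC fell in all 3 lines (-5.41, -4.71 and -4.60). Among the MAX partners that oppose MYC, MXD4 rose in all 3 (1.13, 1.70 and 0.58) and MXD1 in dE9 and iE9 (1.05 and 1.49; WT 0.71), whereas MXI1 fell in WT (-1.03; dE9 -0.32 and iE9 -0.54) and MXD3 passed in none (-1.13, -1.07 and -0.38). Of 15 genes of mTORC1, its substrates and LARP proteins, 4 fell in each line, AKT1S1 (-0.97, -1.09 and -1.26), LARP4 (-0.85, -0.88 and -0.62) and EIF4EBP1 (-2.31, -2.27 and -1.89) in all 3, and 0, 2 and 2 rose. Whether these changes bear on the ribosomal protein genes was not tested.

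Outside the family, the genes whose log2 level was most like the mean of the 77 over the 16 libraries, of 14349 ranked by Pearson r, were BEX3 (0.99), the pseudogene RPL9P9 (0.98), RACK1 (0.98), BTF3 (0.98) and GCAT (0.98).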

How the data were processed

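Polyadenylated RNA was sequenced for 16 libraries. The submitters' processing notes name Salmon, DESeq2 and hg38; tool versions and strandedness: not given in the sources used here. The authors deposited estimated counts (expected counts) and TPM per transcript, per the file headers, and a gene TPM table that equalled the gene sums to within 9.09e-13 for the members. All 205870 transcripts matched GENCODE 29.

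Estimated counts were summed per gene, rounded and tested with edgeR 4.0.16 in R 4.3.3 (quasi-likelihood F test, two-sided, TMM, filterByExpr, 1 coefficient for each of 6 groups, Benjamini-Hochberg over 18073 genes). "Fell", "rose", "passed" and "called" mean an adjusted p under 0.05. CPM is TMM-scaled, and mean log2 levels use an offset of 0.5 CPM. Fold changes are log2 values with a standard error (SE). Alternatives used DESeq2 1.42.0 and limma 3.58.1 (log2(TPM + 1)), other scaling, no filter, fewer libraries and replicate blocks. Deviations of like-numbered libraries correlated by 0.30, 0.30 and 0.24 in dE9 and by 0.44, 0.23 and 0.19 in iE9, so the numbers were taken to pair them, from the numbers in the labels. Unlike-numbered libraries correlated by -0.19 to -0.04 in dE9, and by -0.31 to -0.22 in iE9 where the library numbered 1 was involved. Between the iE9 libraries numbered 2 and 3 the values were 0.15 and 0.08, so their pairing is less clear. Deviations within a group cancel, so positive like-numbered values push the unlike-numbered ones to be negative. The unlike-numbered values are thus no separate evidence of pairing. The tests were checked on simulated data; the test of transcript shares called somewhat more unchanged genes than its nominal rate.

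The members, lists and alternatives were chosen with earlier results of these data known, and support nothing independently. The naming rule took, in each comparison, up to 8 called members per direction by adjusted p, all paralogues and partners, the 5 highest and 5 lowest by mean TPM, the members of small functional sets, up to 4 called genes of each other list, the 4 highest noncoding shares, and the 5 genes most like the family. RPS6, RPS15, RPS16, RPS18, RPL21 and the genes singled out by relative level were named after their values were seen. Some members are not reported by name here and are left out of the figures; they stay in the tests and counts.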

Additional observations from a re-analysis of the deposited data

Results flagged for a closer look

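Reads that the main comparisons do not use were found on processed pseudogenes named for member genes. Of 1144 such pseudogenes, grouped by 77 parents, those of 5 parents held over 2% of the reads given to parent and pseudogenes together. The share was 69.3% for RPL9, 60.1% for RPL23A, 32.1% for RPS28, 25.2% for RPS2 and 4.97% for RPL32. Pseudogenes named for members took 0.0670 to 0.207% of the counts of a library. The levels of RPL9, RPL23A, RPS28 and RPS2 are therefore uncertain, while their changes with PMA were computed from the reads left to each gene.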

How the results depend on the processing

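The direction of every member result called in the 12 comparisons held: of 85, 28 were called under every alternative tried, and of 1396 values recomputed 1128 stayed past the threshold, 268 did not and 0 reversed. All 28 were changes with PMA in dE9 or iE9, so no call in WT was kept under every alternative. For WT the alternatives included fits with 1 library in an arm. With PMA, the members called numbered 2 in WT, 6 in dE9 and 28 in iE9 with limma on log2(TPM + 1) (7.61, 13.9 and 8.78% of all genes lower), and 67, 20 and 27 when only the groups compared were fitted (26.6, 14.3 and 14.2%). With the replicate block nested in line, 56 members fell in WT, 38 in dE9 and 78 in iE9 (18.8, 22.7 and 21.1% of all genes lower). In dE9 4 more rose, which made 42 called in either direction, beside 45.2% of all genes. In WT the like-numbered libraries are not shown to be pairs (correlation of their deviations 0.07). Leaving out 1 library at a time gave 6 to 12 in dE9 (12.2 to 18.9% of all genes lower) and 29 to 76 in iE9 (9.73 to 16%). Of the 12 in dE9, 11 were lower. In WT each such fit left 1 library in an arm. The cause of these differences was not tested. In iE9 against dE9 with PMA, the count of 1 became 3 on total counts (1.51% of all genes lower), 40 without the filter on low counts (2.8%) and 41 with DESeq2 (3.9%). It became 0 when only these groups were fitted (0.158%), 3 with the replicate block (1.53%) and 21 without both iE9 libraries numbered 1 (1.06%). Leaving out 1 library at a time gave 0 to 6 (0.322 to 2.61%). In iE9 against WT with PMA, the count of 0 became 5 without the filter, 2 with DESeq2 and 1 without both iE9 libraries numbered 1. The noncoding share count of 0 in dE9 became 1 without the PMA library numbered 1, and ran from 0 to 1. The replicate block changed no other count by more than 1.5 times. TPM with limma moved the median of all genes by over 0.1 in iE9 with PMA (from -0.01 to 0.09) and in the response of iE9 against dE9 (from -0.07 to 0.07), where the medians of the 77 were -0.67 and -0.42. With 2 or 3 libraries a group and 14536537 to 21888896 counts, whether depth or the number of libraries limits the calls was not tested; RPL3L had at most 34 counts in a group.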
